A study of Rattus norvegicus with 67 samples.

Results

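Normal endometrium of BDII/Han rats fed a high fat diet (HFD) was compared with that of rats fed normal chow (NC) in the first of 2 sequencing batches. The members are the libraries of that batch whose tissue is labelled as normal endometrium and whose intervention label is NO, which gave 8 of the 65 libraries with values. S21, S22, S30 and S35 came from HFD rats and S1, S5, S6 and S20 from NC rats, 1 library from each of 8 rats. The series holds 67 labelled samples from tumours and normal endometrium, and the other 2, 1 of them NC normal endometrium, were not analysed here.

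All the rats were virgin females of the BDII/Han strain, which carries a hereditary tendency to endometrial carcinoma, so that the chow-fed controls shared it. HFD supplied 60% of its energy as fat and NC supplied 3%, and both were given without limit. The rats had chow from weaning, and HFD replaced it in the HFD group from 3 months of age. The study ended at about 15 months of age. Direction was followed in batch 2, in HFD rats whose access to the diet was restricted from 12 to 15 months (RES, 10 libraries from 10 rats) and in HFD rats with no intervention (NO, 4 libraries from 4 rats). HFD rats treated with liraglutide also gave 12 libraries of normal endometrium in batch 2, which shared the fit of RES and NO. Rat number 13 occurs both in the HFD group of batch 1 (S30) and in the NO group of batch 2 (S48), and the labels do not say whether this is 1 animal.

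The endometrium is the lining of the uterus, made of a luminal epithelium, glands, a stroma of fibroblast-like cells, vessels and leucocytes, and it lies on the smooth muscle of the myometrium. Its cells grow, secrete and are shed or remodelled under oestrogen and progesterone over the oestrous cycle. Adipose tissue converts androgens to oestrogens and releases leptin and other adipokines, and obesity is the best known risk factor for endometrial carcinoma of the endometrioid type. Whether a high fat diet alters the tissue before a tumour is seen is the question that a comparison of the diets in normal endometrium addresses. The oestrous stage of the rats was not given in the sources used here.

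Values were estimated counts per transcript, from poly(A) RNA. The totals lay between 16754210 and 17840646 in HFD and between 16800259 and 17992639 in NC, with means of 17369900 ± 464140 (SD, n = 4) and 17321900 ± 600174 (SD, n = 4), a difference within the spread between libraries (exact permutation test, two-sided, p = 0.914). The transcripts are listed by Ensembl identifier, and 0 of the 3 reference tables at hand hold identifiers of that kind, so transcripts could not be assigned to genes. For that reason the tissue label could not be checked against markers of epithelium, stroma or muscle, and no gene list was examined. Levels are given below as scaled CPM, the estimated counts over a library size that was scaled by the median of ratios in all 65 libraries, and each is compared only between libraries for the same transcript. In bulk tissue, fewer cells of a type and less RNA per cell cannot be told apart.

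The 8 libraries were not of one kind. The study records mixed normal and tumour tissue for S1, S20 and S35, and the rats they came from (numbers 1, 7 and 22) also gave 2, 3 and 3 tumour libraries, whereas the other 5 rats gave none among those analysed. On log2(scaled CPM + 0.5) over the 20049 transcripts tested, S1 correlated with the tumours of its own rat at r = 0.947 to 0.957 and with tumours of other NC rats at 0.880 to 0.928. The same ranges were 0.942 to 0.9498 and 0.855 to 0.922 for S20, and 0.940 to 0.957 and 0.909 to 0.929 for S35 against HFD tumours. For each of these 3 libraries the most similar of the other 64 was therefore a tumour of the same rat. A tumour was also the most similar library for S21 and S30, which have no mixed tissue record. It was S24, of HFD rat number 11, at r = 0.954 and 0.928. S22 was most similar to the mixed S35 (0.944). The mean correlation with HFD tumours was 0.931 for S21 and 0.927 for S35.

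S5 and S6, the NC libraries without a mixed tissue record, stood apart from the rest of the series. They correlated with each other at r = 0.936, but with the 4 HFD libraries only at 0.811 to 0.855, and their highest correlation with any of the 57 libraries outside this comparison was 0.878 for S5 and 0.865 for S6. S1 and S20 correlated with the HFD libraries at 0.890 to 0.927, and the HFD libraries among themselves at 0.883 to 0.944. S1 and S20 correlated with S5 and S6 at 0.854 to 0.897, and S1 was closer to S5 (0.897) than to the HFD library S30 (0.890), so that S1 lay between the pair and the HFD libraries. These correlations are across transcripts, which are not independent replicates, and they are given without a test.

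**Figure D1:**
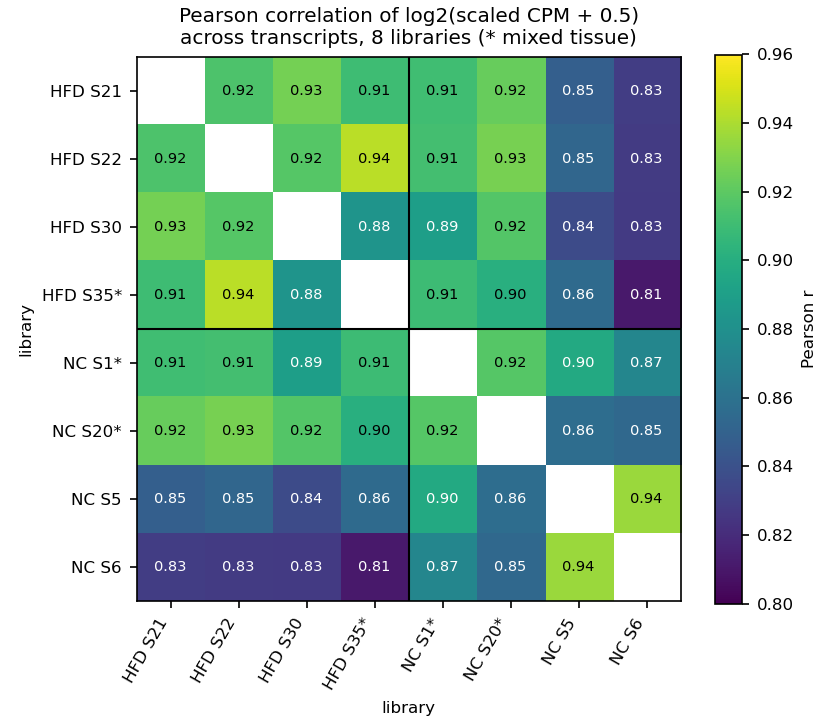
Pearson correlation of log2(scaled CPM + 0.5) between each pair of the 8 libraries, by diet on both axes, with an asterisk for libraries of mixed tissue. S5 and S6 sit at 0.811 to 0.855 with the HFD libraries and at 0.936 with each other.

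There were 67 transcripts that were at least 4-fold higher in both S5 and S6 than in any of the other 63 libraries, and 10 that were at least 4-fold lower in both than in any other. The 67 took 4.43% of all estimated counts in S5 and 5.29% in S6. They took 0.206% in S1, 0.0629% in S20 and 0.0385% to 0.0598% in the HFD libraries, and at most 0.251% (median 0.0312%) in the 57 libraries outside the comparison. Their annotated lengths ran from 234 to 13056 bases (median 1960). The 10 most abundant transcripts of a library took 13.5% of the counts in S5 and 11.6% in S6, against 15.7% to 21.3% in the other NC libraries and 16.7% to 23.5% in HFD (HFD minus NC over all 8 libraries, 3.58 percentage points, exact permutation test, two-sided, p = 0.229, adjusted p = 0.648 over 4 library measures). Whether this pair of libraries holds other cell types than the rest was not tested, since no marker could be identified.

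In the comparison of all 8 libraries, 0 of 20049 transcripts (0%) differed between HFD and NC at an adjusted p under 0.05 (limma, Benjamini-Hochberg), and the smallest adjusted p was 0.245. An unadjusted p under 0.05 was reached by 2916 transcripts (14.5%). edgeR's quasi-likelihood test likewise gave 0, with 3137 at an unadjusted p under 0.05. DESeq2 gave 1156 (5.77%), 531 higher (2.65%) and 625 lower (3.12%) in HFD, and 134 (78 higher and 56 lower) once S5 and S6 were left out. Levels in the 4 HFD libraries did not overlap those in the 4 NC libraries for 1727 transcripts (8.61%), 816 of them higher (4.07%) and 911 lower (4.54%) in HFD.

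Log2 fold changes over all transcripts had a median of 0.01 and a 5th to 95th percentile range of -1.32 to 1.86, with a median standard error of 0.39. More transcripts lay above 1 (3038) than below -1 (1577). Without S5 and S6 the numbers were 1872 and 1571, the 95th percentile fell from 1.86 to 1.41 and 1395 transcripts reached an unadjusted p under 0.05, with 0 passing the adjusted threshold in limma and in edgeR. The excess above 1 depended on the tool: leaving out S5 and S6 took the 2 numbers from 2568 and 1615 to 2068 and 1289 in edgeR, and from 2559 and 1632 to 2111 and 1282 in DESeq2, so that most of it remained there.

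The spread of the normal libraries was also estimated together with that of the 25 tumour libraries of batch 1 (11 HFD and 14 NC), in a fit with 4 groups and the rat as a random effect. There, HFD and NC normal endometrium differed in 61 of 19998 transcripts (0.305%), 52 higher (0.26%) and 9 lower (0.045%) in HFD, with a median log2 fold change of 1.64 for those higher and -0.92 for those lower. The 8 libraries of the comparison did not overlap by diet for 48 of the 61, against 1718 of all 19998, and the 61 were chosen by a small p on these same libraries. Without S5 and S6 this fit called 0, and the medians for the 61 were 1.37 and -0.87. All 61 kept their direction, as did 15603 of all 19998, and with 6 of the normal libraries in both fits a like direction is partly built in. Without S1, S20 and S35 it called 1789 of 19899, 936 higher and 853 lower, with S5 and S6 as the only NC normal libraries.

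**Figure D2:**
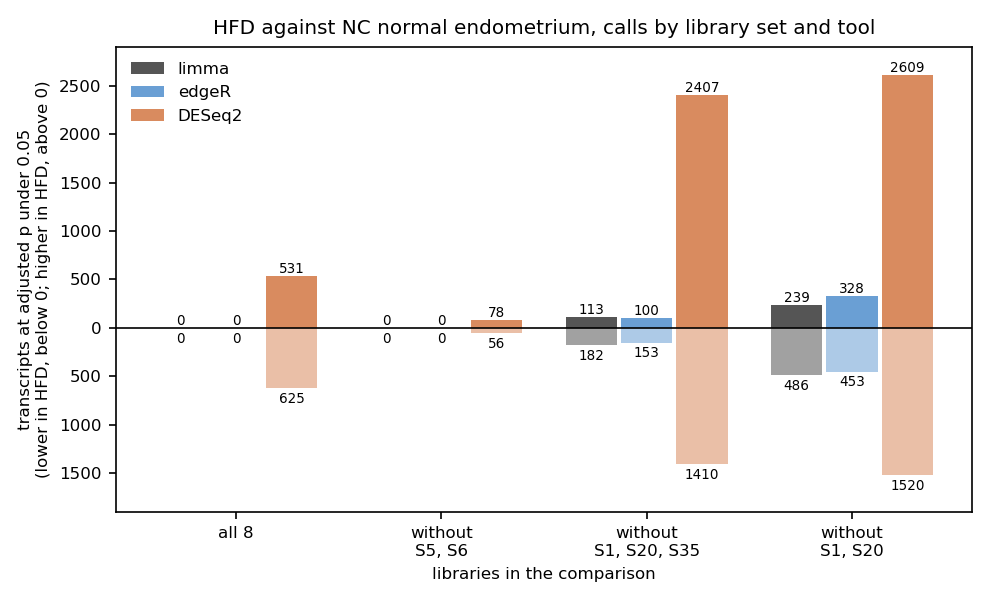
Transcripts called at an adjusted p under 0.05, higher in HFD above 0 and lower in HFD below 0 on the y axis, for 4 sets of libraries on the x axis and 3 tools in colour. With limma and edgeR, calls were made only in the sets shown without S1 and S20, and DESeq2 called fewest, 134, in the set without S5 and S6.

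The transcripts nearest to the threshold in all 8 libraries are described next, since none passed it. ENSRNOT00000071764.3, of 6687 bases, had 31.1, 27.7, 44.5 and 29.3 scaled CPM in S21, S22, S30 and S35, and 112, 113, 84.7 and 125 in S1, S5, S6 and S20. Every NC library lay above every HFD library, the mixed ones included. The log2 fold change was -1.74 (SE 0.20), with an adjusted p of 0.245 in limma and 0.191 in edgeR, and it was -1.88 (SE 0.24) without S5 and S6 and -1.55 (SE 0.28) without S1, S20 and S35.

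ENSRNOT00000073718.3, of 7413 bases, had 68.2, 102, 76.6 and 73.3 scaled CPM in HFD and 155, 246, 262 and 219 in NC, in the same order of libraries. The diets again did not overlap, and S1 was the NC library nearest to HFD. The log2 fold change was -1.46 (SE 0.22, adjusted p = 0.292), and -1.23 (SE 0.26) without S5 and S6.

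In the other direction, ENSRNOT00000012537.7, of 2338 bases, had 146, 89.3, 126 and 113 scaled CPM in HFD and 44.7, 31.5, 28 and 30.8 in NC. S1 was again the NC library nearest to HFD, and the diets did not overlap. The log2 fold change was 1.81 (SE 0.22, adjusted p = 0.245), and 1.64 (SE 0.28) without S5 and S6. ENSRNOT00000007977.5, of 3479 bases, had 56.5, 111, 116 and 65.7 scaled CPM in HFD and 28.4, 22.5, 21.2 and 27.1 in NC. Its log2 fold change was 1.75 (SE 0.27, adjusted p = 0.292), and 1.57 (SE 0.36) without S5 and S6.

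These 4 were taken from a list of 20, the 10 transcripts of smallest p in each direction with a mean of at least 1 scaled CPM. The list had log2 fold changes of 1.14 to 6.79 and of -1.91 to -0.83, with adjusted p between 0.245 and 0.292. Its members had lengths of 671 to 5076 bases where higher in HFD and of 1632 to 10570 bases where lower. All 20 kept their direction without S5 and S6, at 0.96 to 6.79 and -1.88 to -0.77, and 0 of them passed there. Since small p chose them, the absence of overlap between the diets, which held for all 20, is a description. It also fixed their direction without S5 and S6, which is therefore not a result. All 20 were called by DESeq2 and 0 by edgeR.

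Leaving out S1, S20 and S35 left 3 HFD and 2 NC rats with no tumour library. In these 5 libraries 295 of 19574 transcripts (1.51%) were called, 113 higher (0.577%) and 182 lower (0.930%) in HFD, and edgeR called 253 (100 higher and 153 lower). Leaving out any 1 of the 5 gave 0 calls, with 2558 (without S6) to 4397 (without S21) transcripts at an unadjusted p under 0.05. These fits hold 2 libraries against 2, or 3 against a lone NC library that is assumed to vary like the others, so a lost call there does not show a smaller difference. With the total of estimated counts as a term 5 were called, all lower in HFD. Leaving out S1 and S20 alone, so that S35 stayed in HFD, gave 725 of 20082 (3.61%), 239 higher (1.19%) and 486 lower (2.42%), of which 240 were among the 295.

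The changes called in the 5 libraries were large, but small p chose them, and with 3 against 2 libraries small changes could hardly pass. The smallest called was 1.43 in size where higher and 1.28 where lower, so the sizes are a description. The median size of the log2 fold change was 2.79 among the 113 higher and 3.64 among the 182 lower, against 0.60 over all transcripts tested, and it exceeded 3 for 47 and 113 of them. They were also more abundant than the rest, with a median mean level of 60.2 scaled CPM where higher and 34.7 where lower, against 14.9 over all transcripts tested. That mean is over the 8 libraries, S5 and S6 included, and these helped to choose the transcripts, so it too is a description. Median annotated lengths were 2338 and 2457 bases, against 2156. Of the 67 transcripts higher in S5 and S6 than in the other 63 libraries, 50 were called, as were 2 of the 10 lower in both, which is a description, since the same S5 and S6 chose those transcripts and entered the comparison.

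ENSRNOT00000011644.5, of 1555 bases, had the largest change among those called lower. It had 130572 and 147371 estimated counts in S5 and S6, and 2, 5 and 2 in S21, S22 and S30. The libraries left out had 2664 in S1, 6 in S20 and 2 in S35, so the mixed NC libraries fell on both sides. The pooled level was 40242-fold lower in HFD (95% exact interval 21199 to 88007, for counting error only), and the fitted log2 fold change was -15.18 (SE 0.63, adjusted p = 0.0062), which depends on the prior count. In all 8 libraries it was -10.30 (SE 9.87, adjusted p = 0.610).

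ENSRNOT00000018851.3, of 1317 bases, had 84107 and 156692 estimated counts in S5 and S6, against 8, 7 and 19 in S21, S22 and S30. S1 had 1428 and S20 had 4, the lowest of all 8 libraries. The log2 fold change was -13.20 (SE 0.71, adjusted p = 0.012), and its pooled level was 9229-fold lower in HFD (95% exact interval 6604 to 13327, for counting error only). In all 8 libraries the log2 fold change was -8.13 (SE 7.49, limma adjusted p = 0.595).

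Among those called higher, ENSRNOT00000087300.1, of 3223 bases, had 12 and 7 estimated counts in S5 and S6, against 3462, 5410 and 5845 in S21, S22 and S30. S1 and S20 had 1995 and 2495, against 3143 in the HFD library S35. In scaled CPM these were 119 and 137 against 193, and all 4 HFD libraries lay above all 4 NC libraries. The log2 fold change was 9.15 (SE 0.85, adjusted p = 0.024) in the 5 libraries and 1.13 (SE 0.34, adjusted p = 0.716) without S5 and S6. ENSRNOT00000056845.4, of 1531 bases, was listed at 0 in S5 and S6 and had 183, 95.3 and 109 estimated counts in S21, S22 and S30. With 3 counts allowed in each library at 0, it was at least 49.6-fold higher in HFD, and the fitted log2 fold change was 8.16 (SE 1.05, adjusted p = 0.041). It had 4.503 in S1 and 23.1 in S20, both below the 459 of S35.

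**Figure D3:**
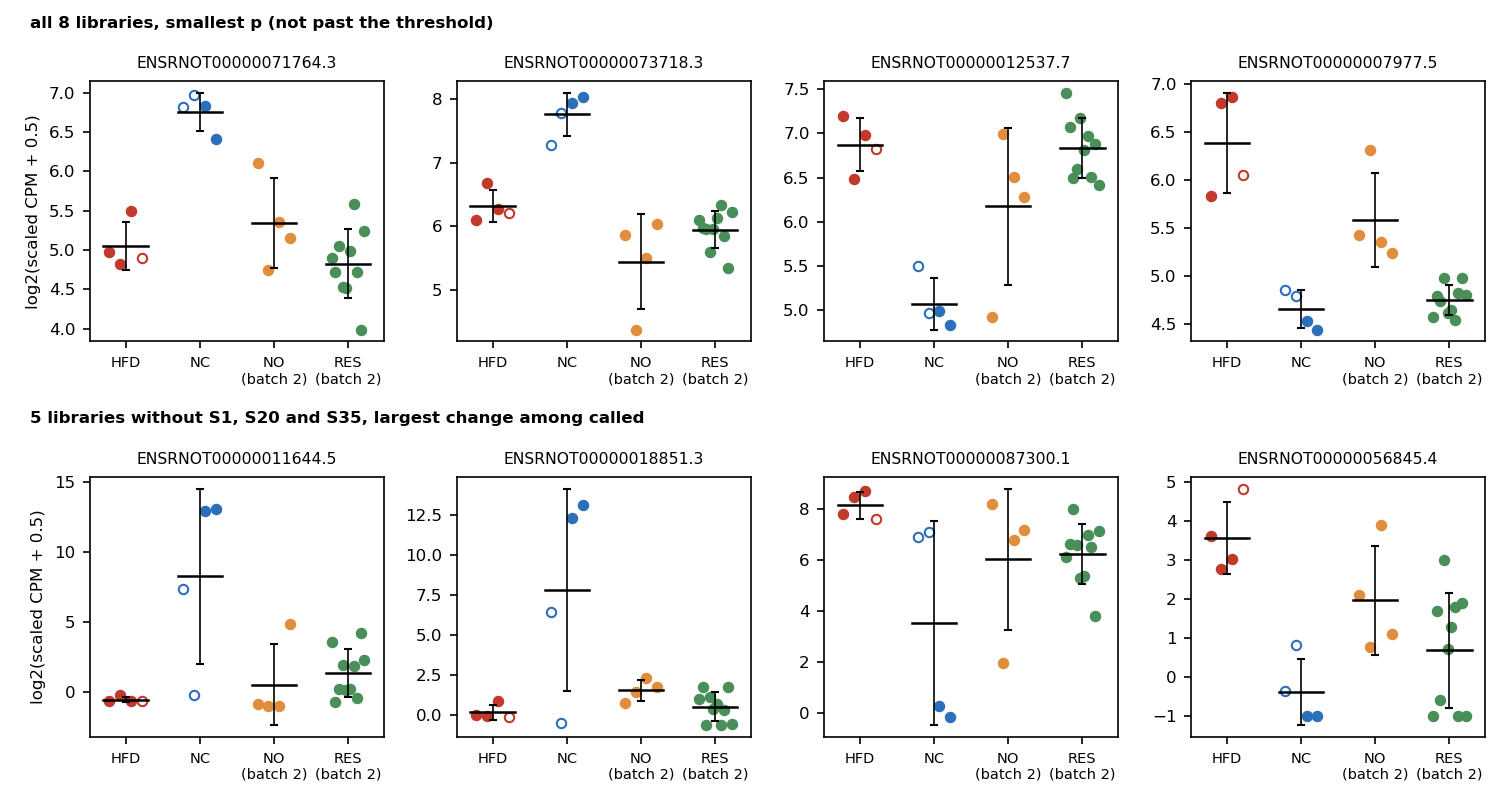
Levels of 8 transcripts as log2(scaled CPM + 0.5) on the y axis, by group on the x axis; points are libraries (open for mixed tissue), lines are means and bars are SD over libraries. The upper row shows transcripts in which all 4 NC libraries lie on one side of all 4 HFD libraries, and in the lower row S5 and S6 lie farthest from HFD, beyond S1 and S20.

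The libraries that were not used to choose the 295 transcripts were placed between the means of S21, S22 and S30 (position 0) and of S5 and S6 (position 1), per transcript on the log2(scaled CPM + 0.5) scale. The median position was 0.036 for S20 and 0.271 for S1, both NC, and 0.074 for S35, from HFD. S20 lay nearer to the HFD mean for 92.5% of the 295 transcripts, S35 for 88.8% and S1 for 71.2%. Over all transcripts tested in the 5 libraries, the 295 among them, the shares were 60.1% for S20, 63.9% for S35 and 54.4% for S1. The 14 tumour libraries of NC rats had median positions of 0.007 to 0.257, and the 57 libraries outside the comparison, of both diets, tissues and batches, lay between -0.012 and 0.267.

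**Figure D4:**
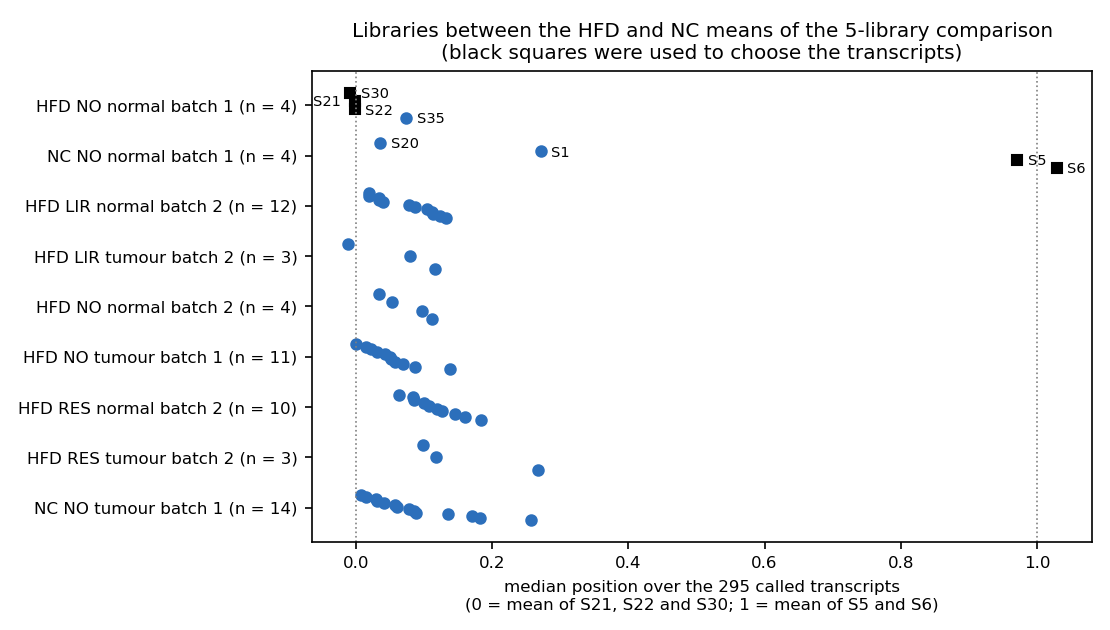
Median position of each of the 65 libraries (points) on the x axis, by group on the y axis, over the 295 transcripts called in 5 libraries; black squares mark the libraries that chose the transcripts. Only S5 and S6, at 0.971 and 1.03, lie above 0.271, the position of S1.

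By median position, the unused libraries of both diets lay nearer to the HFD than to the NC end. All unused NC libraries were tumours or of mixed tissue. The HFD end also averages more libraries than the NC end, which can by itself place a library nearer to it. Without S5 and S6, 289 of the 295 transcripts could be tested, 228 (78.9%) had the same direction as in the 5 libraries against 68.1% of all transcripts, and 0 passed. The median size of their log2 fold change was 0.65 there, against 3.18 in the 5 libraries, where small p chose them. These sets of libraries share S21, S22 and S30, so that a like direction is partly built in and is not a result. Among the NC libraries, standing apart from the series and having no mixed tissue record coincide in S5 and S6, and the 2 cannot be told apart.

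In tumours of the same batch (11 HFD libraries from 4 rats and 14 NC libraries from 5 rats), 0 of 20071 transcripts (0%) were called between the diets, with 173 at an unadjusted p under 0.05 in limma and 364 in edgeR. The paper, by contrast, reports transcripts that differed between HFD and NC tumours after correction. Its numbers of samples and rats are not the same as those here, and the cause of the unlike outcome was not tested. Of the 20 transcripts of smallest p in normal endometrium, 13 had the same direction in tumours (7 of 10 higher and 6 of 10 lower). The share over all transcripts was not computed, so this count is a description only. The log2 fold changes there were -0.19 (SE 0.40) for ENSRNOT00000071764.3, -0.23 (SE 0.37) for ENSRNOT00000073718.3, 0.65 (SE 0.39) for ENSRNOT00000012537.7 and 0.12 (SE 0.19) for ENSRNOT00000007977.5, none of which passed (adjusted p = 1.00 each). Of the 25 tumour libraries, 8 came from the rats of S1, S20 and S35.

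Diet restriction in batch 2 offered other rats in which to follow the transcripts. Between RES and NO, 4121 of 19954 transcripts (20.7%) were called, 1623 higher (8.13%) and 2498 lower (12.5%) in RES. These counts moved with single NO libraries, to 2159 without S50, 2178 without S48 and 2532 without S51. NO libraries also had more estimated counts than RES libraries, 17890498 to 18922772 against 16185536 to 18426801, and 860 transcripts were called with the total as a term.

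Because no transcript was called in all 8 libraries, there was no called set to follow from that comparison. Over the 19162 transcripts tested in both comparisons, 56.9% had opposite directions, that is higher in HFD and lower in RES or the reverse (r = -0.18 across transcripts). Of the 2833 with an unadjusted p under 0.05 for diet, 1770 (62.5%) were opposite, and 690 (24.4%) were called in RES against 21.2% of all in both, 505 of them opposite (73.2%) and 185 in the same direction, where 2564 of all 4053 called (63.3%) were opposite. The share without S5 and S6 was 55% over all transcripts. Each of these shares was above 50%, and no test is given, since transcripts are not independent replicates.

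The 295 transcripts called in 5 libraries moved with restriction about as often as other transcripts. Of the 274 tested in both comparisons, 160 (58.4%) had opposite directions, against 57% of all 18829 transcripts in both. By direction, 66 of 111 higher in HFD (59.5%) were lower in RES, and 94 of 163 lower in HFD (57.7%) were higher in RES. RES against NO called 57 of the 274 (20.8%), close to the 21.4% of all transcripts in both, and 36 of the 57 were opposite (63.2%), against 2521 of all 4034 called (62.5%). Of the 61 transcripts of the fit with 4 groups, 59 were tested, 40 (67.8%) were opposite and 11 (18.6%) were called, 8 of them opposite. Over all 19317 transcripts of that fit tested for restriction, 57.6% were opposite and 21.1% were called, 2579 of these 4071 opposite.

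**Figure D5:**
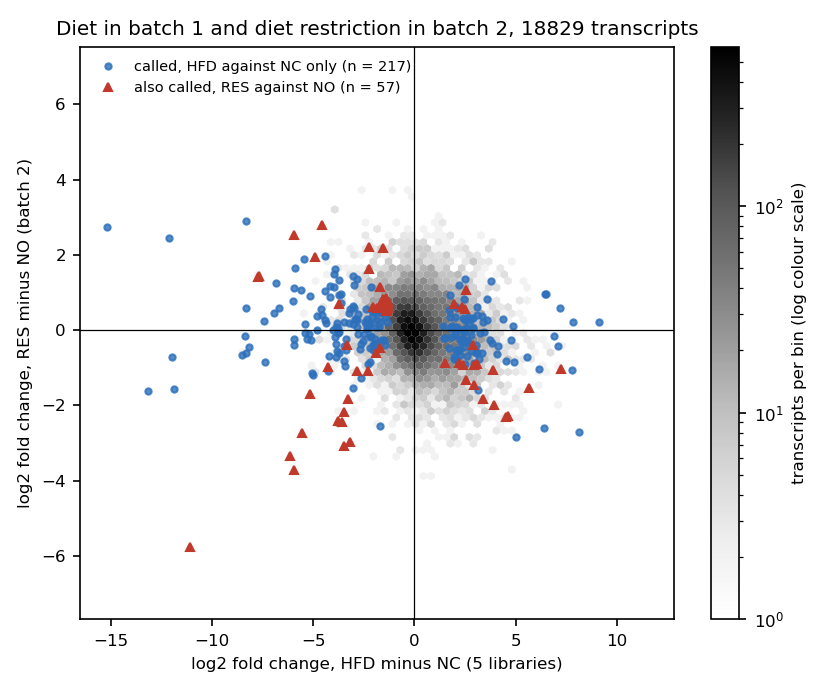
Log2 fold change of HFD minus NC in 5 libraries (x axis) against RES minus NO (y axis), with all 18829 transcripts as bins in grey and the 274 called for diet as points, as red triangles where also called for restriction. Points lie in all 4 quadrants, 160 of 274 in the 2 of opposite direction.

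RES against NO called 20.7% of all transcripts. Of the list of 20, it called 4 of the 10 higher in HFD, 3 of them opposite, and 0 of the 10 lower. For single transcripts, ENSRNOT00000007977.5 was the 1 of the 4 described above that was called for restriction, a count near that share. It had 37.3 to 79.1 scaled CPM (median 41.5, n = 4) in NO and 22.7 to 30.95 (median 26.7, n = 10) in RES, so that the groups did not overlap, and the median of RES lay within the range of the NC libraries of batch 1, 21.2 to 28.4. The log2 fold change of RES minus NO was -0.86 (SE 0.20, adjusted p = 0.0059, limma), opposite to that of HFD minus NC. The NO median, 41.5, lay below the range of the HFD libraries of batch 1, 56.5 to 116, and of the NO libraries only S50 (79.1) fell inside it. Levels set side by side across the batches share 1 scaling but come from different sequencing batches.

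ENSRNOT00000012537.7 had 29.8 to 126 scaled CPM in NO (median 84.0) and 84.8 to 175 in RES (median 115), and its log2 fold change of 0.65 (SE 0.32, adjusted p = 0.140) was in the same direction as that for diet. ENSRNOT00000071764.3 had 26.4 to 68.6 (median 37.9) in NO and 15.4 to 47.5 (median 27.7) in RES, with -0.54 (SE 0.45, adjusted p = 0.405). ENSRNOT00000073718.3 had 20.2 to 64.97 (median 51.03) in NO and 39.95 to 80.3 (median 61.99) in RES, with 0.48 (SE 0.25, adjusted p = 0.165). For both transcripts lower in HFD, NO and RES libraries were below every NC library of batch 1. The 4 transcripts with the largest changes in 5 libraries did not pass between RES and NO (adjusted p 0.077 to 0.901), and ENSRNOT00000011644.5 reached at most 71.7 scaled CPM in the 57 libraries outside the comparison, against 7630 in S5 and 8437 in S6.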

How the data were processed

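The authors used BBDuk for trimming and Kallisto for pseudo-alignment to Ensembl transcripts of Rnor_6.0, and deposited estimated counts for every transcript in each library, with no scaling between libraries. The submitters' notes name sleuth, and tool versions are not given in the sources used here. Kallisto divides reads among transcripts that share sequence, so values of related transcripts are uncertain. TPM, also deposited, served 1 alternative.

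Transcripts were kept where 47% or more of the fitted libraries held 5 or more estimated counts. Median-of-ratios scaling was followed by limma voom and robust empirical Bayes (limma 3.58.1, R 4.3.3), with Benjamini-Hochberg adjustment and a threshold of 0.05. RES, NO and liraglutide-treated libraries shared 1 fit, with the rat as a random effect (correlation 0.000164), and tumours were fitted likewise (0.590). Rat numbers 14 (RES), 16 and 17 (both NO) recur among the liraglutide-treated libraries and were fitted as different animals. edgeR 4.0.16 and DESeq2 1.42.0 were run on counts rounded to whole numbers, summed per rat for RES against NO and for tumours. Steps were tested on simulated data. The rat was the replicate. Over 16585 transcripts the least different of the 28 pairs of libraries had a chi-square of 87.2 per degree of freedom, so none was deposited more than 1 time.

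Members, lists and tests were chosen with earlier results of these data known. The sets without S5 and S6 and without S1 and S20 alone, in the fit with 4 groups also without S1, S20 and S35, the share of opposite directions over all transcripts, and the alternatives within the 5 libraries and the tumours were added after the data were examined. The planned list of named transcripts was shortened to 2 in each direction per set of libraries (smallest p in 8 libraries, largest change among called in 5) because identifiers could not be paired with genes, and planned gene and marker lists were not used.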

Additional observations from a re-analysis of the deposited data

Results flagged for a closer look

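A value was singled out where 1 library lay farther from the others of its group than Dixon's 95% limit allows. This occurred in 7 of 38 groups examined. Chance gives about 1 in 20 groups only for normally distributed values. Scaled CPM was used without logarithms and some counts were near 0, so that rate need not hold here. Library S6 (NC) had 19208 transcripts with at least 5 estimated counts, against 19970 to 20095 in the other NC libraries (n = 4). ENSRNOT00000007977.5 had 79.1 scaled CPM in S50 (NO), against 37.3 to 42.5 in the other NO libraries (n = 4), and its call between RES and NO includes that library. ENSRNOT00000011644.5 had 0.330 in S22 against 0.123 to 0.140 in the other HFD libraries, which is 5 against 2 estimated counts, and 28.5 in S52 (NO) against 0 to 0.0504. ENSRNOT00000018851.3 had 1.33 in S30 (HFD) against 0.431 to 0.512. In RES (n = 10), ENSRNOT00000056845.4 had 7.59 in S40 against 0 to 3.22, and ENSRNOT00000087300.1 had 251 in S39 against 13.2 to 138. The causes were not tested.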

How the results depend on the processing

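The 0 calls in all 8 libraries held in 18 of 24 alternatives (2 of which are the same set, without S30), among them edgeR, TMM, library size only, filterByExpr, counts from TPM and each library left out in turn. The count was 8 with no filter, 1156 with DESeq2, 61 with 4 groups in 1 fit, 1789 with 4 groups and without S1, S20 and S35, 295 without S1, S20 and S35, and 725 without S1 and S20. In the 5 libraries the count of 295 became 3817 with DESeq2 (2407 higher and 1410 lower), 483 with library size only (115 higher and 368 lower), 448 with no filter, 171 with counts from TPM and 5 with the total as a term, and 0 to 0 when 1 library was left out. Between RES and NO, 4121 became 6195 with DESeq2, 860 with the total as a term and 2159 to 4628 when 1 library was left out, and library size only gave 3784 higher and 1247 lower, with a median over all transcripts of 0.26 in place of 0.02. The same scaling moved the median of HFD minus NC from 0.01 to -0.17 in 8 libraries and from 0.01 to -0.21 in 5. In tumours DESeq2 called 2. The followed set held 0 opposite transcripts of 0 called, and 160 of 274 when called without S1, S20 and S35. The share of opposite directions, 56.9%, was 55% without S5 and S6, 53.1% with the total as a term, and 54.8% to 58.5% when 1 library was left out. The cause was not tested. None of the 8 transcripts described changed sign, and the calls of the 4 from the 5 libraries were lost with any 1 library left out, in fits of 4 libraries, while their log2 fold changes stayed at -15.55 to -14.98, -13.64 to -12.77, 8.76 to 9.52 and 7.88 to 8.36. No paired analysis was possible because the groups compared share no rat numbers within a batch. Sums per gene were not run, since no table pairs transcripts with genes, and marker levels were not computed for that reason. With 4 rats a group the median standard error of 0.39 (log2) limits what could be detected, and the smallest p of an exact permutation test is 0.0286.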

Other observations

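Transcripts were divided into 5 groups of equal size by mean level over the 8 libraries. The share with an unadjusted p under 0.05 between HFD and NC rose from 7.41% in the group of lowest level (0.191 to 2.26 scaled CPM) to 20.0% in the highest (above 53.7), and the share called in 5 libraries from 0.172% to 3.30%. The median log2 fold change stayed between -0.02 and 0.09 in all 5 groups. Between RES and NO the median ran from 0.35 in the group of lowest level to -0.17 in the highest. With 5 groups by annotated length, the share with an unadjusted p under 0.05 was 10.7% in the shortest (131 to 1203 bases) and 17.3% in the longest (3736 to 25658 bases).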
